A study of Mus musculus with 6 samples.

Results

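The JAK-STAT3 receptors and SOCS feedback genes are 10 genes chosen by symbol, Lif, Lifr, Osmr, Jak1, Jak2, Stat3, Stat5a, Stat5b, Socs3, and Cish, out of the 49671 genes quantified in muscle stem cells (MuSCs). They were measured by RNA-Seq in 6 libraries, 3 from mice treated with resolvin D1 (RvD1), a lipid mediator of the resolution of inflammation, and 3 from mice that received the ethanol vehicle. All 6 were female C57BL/6 mice aged 4 to 6 months, without any transgene, and both groups were injured by 50 μL of 1.2% BaCl2 in the tibialis anterior (TA), so an uninjured group is not part of the comparison. RvD1 was injected IP at 100 ng daily, and at day 3 the 2 TA muscles of a mouse were pooled, digested, and sorted for cells with β1-integrin and CXCR4 but without Sca-1, CD11b, Ter119, and CD45. The sample labels add CD31 to the markers selected against and give 1 ng of input RNA, where the methods of the study give 10 ng. Each library stands for 1 mouse, so differences between animals cannot be told apart from those of sorting and library preparation.

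Cytokines of the IL-6 family bind receptors that pair with gp130, and the receptor-bound JAK kinases then phosphorylate STAT proteins, mainly STAT3 for this family, which enter the nucleus as dimers. SOCS proteins are transcribed in response to STATs and bind the receptor or kinase to shut the signal off, so that SOCS3 is widely read as a sign of STAT3 activity and CIS, the product of Cish, as a sign of STAT5 activity. In MuSCs, STAT3 signaling is known for its influence on the balance of self-renewal and differentiation after injury, and LIF for its action on myoblast growth. RNA levels do not show phosphorylation.

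The promoters of the feedback genes are shown because STAT dimers recognize the motif TTCNNNGAA, which reads the same on both strands. RefSeq (GRCm38.p6) held promoter windows, 250 bases before to 50 bases after a transcription start, for all 10 genes, with 13 windows in total. The motif was found for 2 of the 10 genes, Cish and Socs3, which have 1 window each. Among all 32851 windows of the same length, 8.3% held the motif and 0.457% held it 2 times or more. The Cish stretch lies on the plus strand at chr9:107296559-107296678 and ends 20 bases after the RefSeq start, and the Socs3 stretch lies on the minus strand at chr11:117969497-117969616. Capitals mark the motif.
Cish: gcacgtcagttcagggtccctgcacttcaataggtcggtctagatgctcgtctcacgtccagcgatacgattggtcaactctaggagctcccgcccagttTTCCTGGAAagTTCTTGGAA
Socs3: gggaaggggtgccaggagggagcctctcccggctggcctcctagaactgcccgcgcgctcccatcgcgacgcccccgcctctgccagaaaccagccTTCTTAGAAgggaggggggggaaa
In Cish the motif occurred 2 times, at positions 1 to 9 and 12 to 20 counted from the RefSeq start. In Socs3 it lies at positions −154 to −146. All of these sites fall inside the GENCODE spans of the genes given below, so their positions depend on the RefSeq start. Of the 4 SOCS family genes with a window (Cish, Socs1, Socs3, and Socs4), 2 held it. A match describes these letters only, and STAT binding was not measured.

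None of the 10 JAK-STAT genes was shown to differ between RvD1 and vehicle beyond the spread between mice. All 10 had enough counts to be tested, 0 passed an adjusted p of 0.05 (background 0% of 14494 genes), and 0 passed an unadjusted p of 0.05 (background 3.47%). The unadjusted p values ran from 0.205 for Lif to 0.595 for Jak1, and the adjusted p was 0.971 for each (quasi-likelihood test of edgeR, Benjamini-Hochberg adjusted). Values of the RvD1 and vehicle mice overlapped for every one of the 10 genes, whereas they did not overlap for 9.62% of all genes tested. All 10 point estimates were nevertheless above 0, against 53.5% of all genes, and on the log2 CPM scale all 10 genes were highest in the same mouse, RvD1 replicate 1, against 30.6% of all genes. In TPM this held for all but Lif.

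Total expected counts, the depth of a library, lay between 17962025 and 28149176 for RvD1 mice and between 16148026 and 18755643 for vehicle mice. At this depth 3 counts correspond to between 0.107 and 0.186 CPM, which are counts scaled to the library total. Reads carried no molecular identifiers, and this floor covers counting error only. Levels are given below in TPM, which are scaled for transcript length and depth and can be compared between genes, and fold changes come from the counts. Positions are those of GENCODE M21 on GRCm38. In bulk RNA, fewer cells with a transcript and less of it per cell cannot be told apart.

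**Figure D1:**
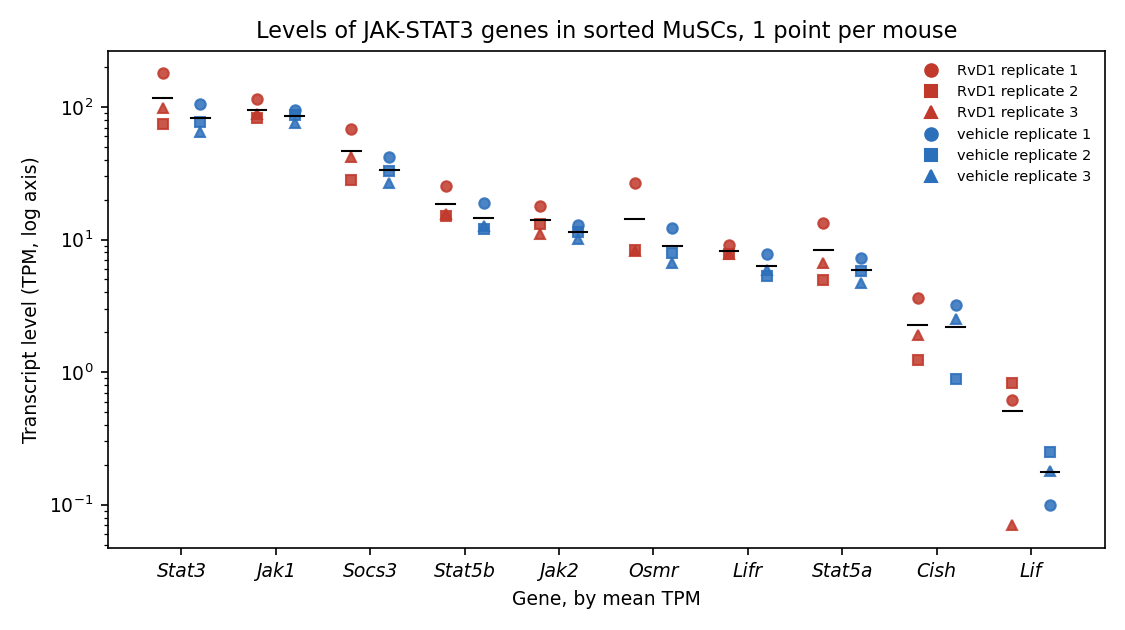
Transcript level of each gene in TPM on a log axis, with 1 point per mouse (red, RvD1; blue, vehicle; shapes, replicate number) and a line at each group mean. RvD1 replicate 1 is the top RvD1 point for every gene except Lif, and the ranges of both groups overlap, or touch for Lifr.

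The genes covered a wide range of levels. Stat3 (mean of all 6 libraries, 99.7 TPM) and Jak1 (90.6 TPM) were the most abundant, and their order was not settled, with Stat3 above Jak1 in 3 of 6 libraries. Socs3 followed at 39.9 TPM, below Jak1 in 6 of 6 libraries and with no overlap of their ranges. Stat5b (16.5 TPM), Jak2 (12.7 TPM), Osmr (11.6 TPM), Lifr (7.28 TPM), and Stat5a (7.10 TPM) formed a series in which each gene overlapped the next in its range. Below these, and separate from their neighbors in range, were Cish at 2.23 TPM and Lif at 0.342 TPM. RNA was thus abundant for STAT3 and its kinase and scarce for the ligand LIF.

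Lif, the ligand of the group (ENSMUSG00000034394, chromosome 11, 4257557 to 4272514, plus strand), was at 0.62, 0.83, and 0.07 TPM in RvD1 replicates 1, 2, and 3 and at 0.10, 0.25, and 0.18 TPM in vehicle replicates 1, 2, and 3. The lowest and the highest libraries were both RvD1 libraries, and these values rest on few reads, 30, 28, and 3 expected counts with RvD1 and 4, 11, and 8 with vehicle. The lowest of these is at the floor of 3 counts. The log2 fold change was 0.95 (SE 0.695), the largest estimate and the largest error of the 10 genes, and without RvD1 replicate 1 it was 0.47 (SE 0.743).

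Lifr encodes the receptor subunit that binds LIF (ENSMUSG00000054263, chromosome 15, 7090614 to 7197489, plus strand). Its levels were 9.09, 7.74, and 7.79 TPM with RvD1 and 7.74, 5.35, and 5.94 TPM with vehicle. The 2 lowest libraries were vehicle libraries, and the highest vehicle library equaled the lowest RvD1 library. By counts, the log2 fold change was 0.13 (SE 0.166), and without RvD1 replicate 1 it was 0.00045.

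Osmr, the receptor subunit for oncostatin M (ENSMUSG00000022146, chromosome 15, 6813577 to 6874969, minus strand), was at 26.5, 8.34, and 8.13 TPM with RvD1 and at 12.1, 7.89, and 6.62 TPM with vehicle. RvD1 replicate 1 exceeded every other library, and the other RvD1 mice fell between vehicle replicates 1 and 2. Its log2 fold change of 0.59 (SE 0.445) became −0.20 (SE 0.216) when this mouse was left out. Osmr and Lifr both pair with gp130, and the ratio of Osmr to Lifr in TPM was 2.92, 1.08, and 1.04 with RvD1 and 1.57, 1.48, and 1.11 with vehicle. RvD1 replicate 1 thus had the highest share of Osmr, and the lowest ratios were those of the other RvD1 mice.

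Jak1, the kinase used by most IL-6 family receptors (ENSMUSG00000028530, chromosome 4, 101152367 to 101265282, minus strand), had the smallest fold change. It was at 115, 82.0, and 88.3 TPM with RvD1 and at 95.1, 86.8, and 76.1 TPM with vehicle, a log2 fold change of 0.06 (SE 0.117). A total of 3 other annotated genes overlap it, among them Raver2 on the opposite strand, and the library kit does not mark strand. Jak2, a kinase of the growth hormone and erythropoietin receptors that also serves gp130 (ENSMUSG00000024789, chromosome 19, 29251828 to 29313080, plus strand), was at 18.0, 13.0, and 11.1 TPM with RvD1 and at 12.9, 11.4, and 10.2 TPM with vehicle. RvD1 replicate 3 lay below the 2 highest vehicle libraries, and the log2 fold change was 0.21 (SE 0.172). Without RvD1 replicate 1, the log2 fold change was −0.06 for Jak1 and 0.02 for Jak2. Jak1 exceeded Jak2 by between 6.31 and 7.99 times in every library.

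Stat3, the transcription factor that carries the IL-6 family signal (ENSMUSG00000004040, chromosome 11, 100885098 to 100939540, minus strand), was at 179, 73.8, and 98.1 TPM with RvD1 and at 105, 77.5, and 64.6 TPM with vehicle. RvD1 replicate 2 was lower than 2 of the vehicle mice, and RvD1 replicate 1 was higher than all. RvD1 mice had a mean of 117 ± 55.3 TPM and vehicle mice 82.3 ± 20.6 TPM (SD, n = 3 each). By counts this was a log2 fold change of 0.30 (SE 0.310), and without RvD1 replicate 1 it was −0.15 (SE 0.193).

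Stat5a and Stat5b encode near-identical factors that serve growth hormone and many cytokines, and lie beside Stat3 on chromosome 11. Stat5a (ENSMUSG00000004043, 100859351 to 100885169, plus strand) was at 13.2, 4.93, and 6.70 TPM with RvD1 and at 7.22, 5.80, and 4.70 TPM with vehicle. Stat5b (ENSMUSG00000020919, 100780731 to 100850724, minus strand) was at 25.2, 15.0, and 15.5 TPM with RvD1 and at 18.8, 12.0, and 12.8 TPM with vehicle. For both genes RvD1 replicate 1 was the highest and vehicle replicate 1 the next. The log2 fold change was 0.36 (SE 0.285) for Stat5a and 0.24 (SE 0.190) for Stat5b, and without RvD1 replicate 1 it was −0.08 and 0.08.

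The counts of these genes show that reads were divided among them. Single counts were fractional, such as 509.18 for Stat5a and 1395.82 for Stat5b in RvD1 replicate 1, but their sum was whole (within 0.005) in 5 of 6 libraries. In RvD1 replicate 2 the sum was 1601.59, and it became whole, 6442, when the 4840.41 counts of Stat3 were added. The 3′ ends of Stat3 and Stat5a also overlap on opposite strands. The split between Stat5a and Stat5b is thus an estimate, and the sum of both, an alternative chosen after seeing the data, had a log2 fold change of 0.27 (SE 0.196), or 0.05 without RvD1 replicate 1. In TPM, Stat5b exceeded Stat5a by between 1.90 and 3.04 times.

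Socs3, the inhibitor that binds gp130 and the JAKs (ENSMUSG00000053113, chromosome 11, 117966079 to 117970047, minus strand), was at 68.1, 28.1, and 42.3 TPM with RvD1 and at 41.7, 32.8, and 26.6 TPM with vehicle. RvD1 replicate 1 stood above the rest, RvD1 replicate 3 was level with vehicle replicate 1, and RvD1 replicate 2 fell among the lower vehicle mice. RvD1 mice had a mean of 46.2 ± 20.3 TPM and vehicle mice 33.7 ± 7.56 TPM (SD, n = 3 each). By counts the log2 fold change was 0.37 (SE 0.274) with all libraries and −0.0064 (SE 0.184) without RvD1 replicate 1. The ratio of Socs3 to Stat3 in TPM was 0.380, 0.381, and 0.431 with RvD1 and 0.398, 0.424, and 0.413 with vehicle. The means of this ratio were 0.397 ± 0.0289 (SD, n = 3) and 0.411 ± 0.0130 (SD, n = 3), so the difference between groups was smaller than the SD among RvD1 mice. The ratio varied more by CPM, at 0.271, 0.252, and 0.354 with RvD1 and 0.259, 0.263, and 0.319 with vehicle, and the reads behind 1 TPM of Stat3 moved by a factor of 1.33 between libraries.

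Cish (ENSMUSG00000032578, chromosome 9, 107296026 to 107302784, plus strand), whose RefSeq promoter window holds the motif 2 times, gave different answers on the deposited scales. By counts scaled to CPM it was at 5.98, 1.53, and 2.22 with RvD1 and at 3.22, 1.44, and 1.85 with vehicle, a log2 fold change of 0.58 (SE 0.533). By TPM it was at 3.63, 1.23, and 1.90 with RvD1 and at 3.22, 0.88, and 2.5 with vehicle. RvD1 replicate 1 was highest on both scales, but by TPM all 3 vehicle mice spanned nearly the same range as the RvD1 mice, and the means were 2.25 ± 1.24 and 2.20 ± 1.2 TPM (SD, n = 3 each). On log2(TPM + 1), the log2 fold change was 0.04.

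The number of reads behind 1 TPM of Cish, relative to the median gene of the same library, moved between 0.506 in vehicle replicate 3 and 1.24 in RvD1 replicate 1, a factor of 2.46. It moved by a factor of 2.07 for Lif and by no more than 1.33 for the other 8 genes. TPM depends on the transcript length that is assigned in each library, and 2 genes, Gm17040 and Gm17041, overlap Cish on the opposite strand. Their part in the result was not tested. Cish also rests on few reads, 132, 43, and 40 counts with RvD1 and 52, 25.18, and 34 with vehicle. Without RvD1 replicate 1 the log2 fold change by counts was −0.21 (SE 0.418).

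**Figure D2:**
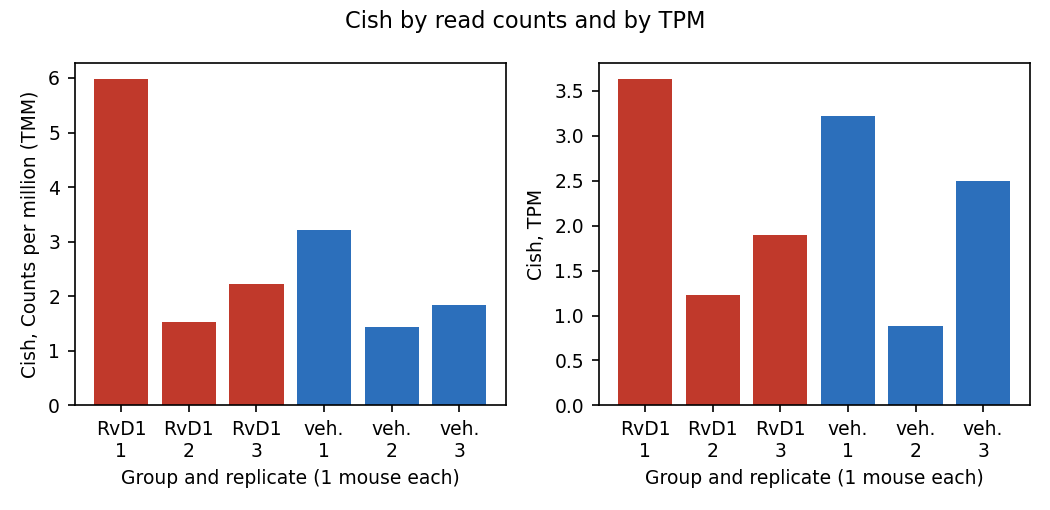
Level of Cish in each mouse as CPM (left) and as TPM (right), with bars from 0 (red, RvD1; blue, vehicle). RvD1 replicate 1 is 5.98 CPM against 3.22 CPM in vehicle replicate 1 on the left, and 3.63 against 3.22 TPM on the right.

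What the 10 genes shared was their distribution over mice rather than over groups. On the log2 CPM scale RvD1 replicate 1 exceeded the mean of the other 5 libraries by 1.58 for Osmr, 1.56 for Cish, 1.47 for Lif, and 1.01 for Stat3, which correspond to 3.0-, 2.94-, 2.78-, and 2.01-fold. The excess was at least 1 for these 4 of the 10 genes and for 5.87% of all genes tested. It was smallest for Jak1, at 0.32, and Lifr, at 0.36. The median excess was 0.96 over the 10 genes and 0.02 over all genes. These are descriptions, since the library was singled out after its values were seen.

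A similar order appeared among the vehicle mice. Vehicle replicate 1 was the highest of the 3 vehicle libraries for 9 of the 10 genes, all but Lif, against 35.4% of all genes. The excess over the mean of the other vehicle mice was 0.94 for Cish, 0.75 for Osmr, and 0.59 for Stat3 on the log2 CPM scale. The median SD of log2 CPM over the 10 genes was 0.60 with RvD1 and 0.31 with vehicle, compared with 0.23 and 0.14 over all genes. Some of the 10 were below these medians, such as Lifr with RvD1 (0.21) and Stat5a with vehicle (0.12). The SD was larger with RvD1 for 8 of the 10 genes, and for 69.6% of all genes.

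**Figure D3:**
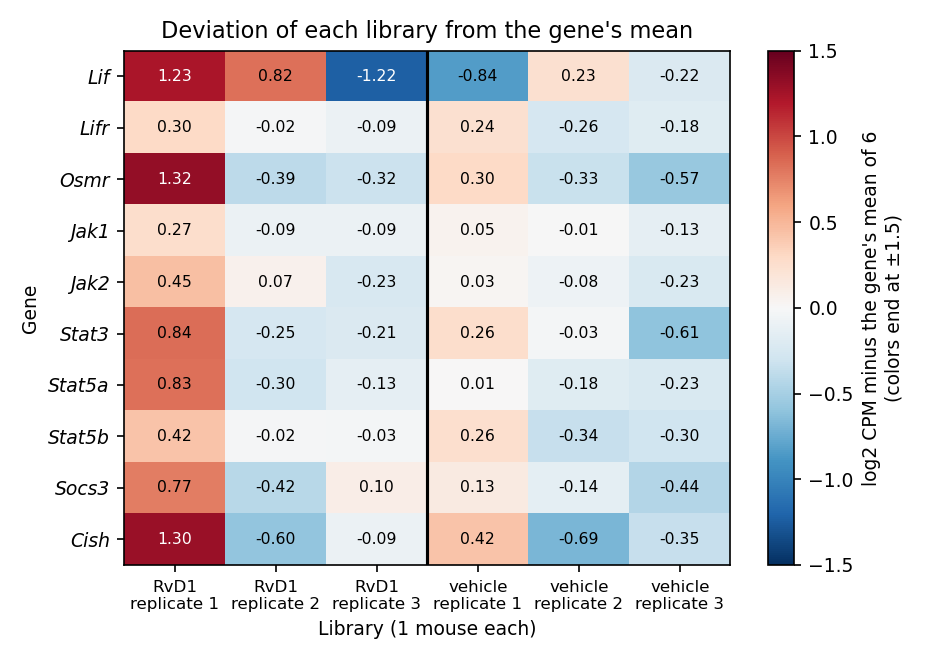
Deviation of each library from the mean of 6 for each gene, on the log2 CPM scale (red, above; blue, below; colors end at 1.5). RvD1 replicate 1 is red in every row, with values from 0.27 for Jak1 to 1.32 for Osmr, and vehicle replicate 1 is above 0 in every row but Lif.

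Leaving out RvD1 replicate 1 removed the shared direction. Since all 10 genes were highest in that library by log2 CPM, its removal was bound to lower their estimates. The values without it are therefore descriptions. The log2 fold change was then above 0 for 4 of the 10 genes (Lif, Lifr, Jak2, and Stat5b), against 50.3% of all genes, and 0 had an unadjusted p under 0.05. The median of the 10 log2 fold changes was 0.33 with all libraries and −0.04 without this mouse, beside a median over all genes of 0.01 and 0.00097. With any other library left out, all 10 stayed above 0.

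**Figure D4:**
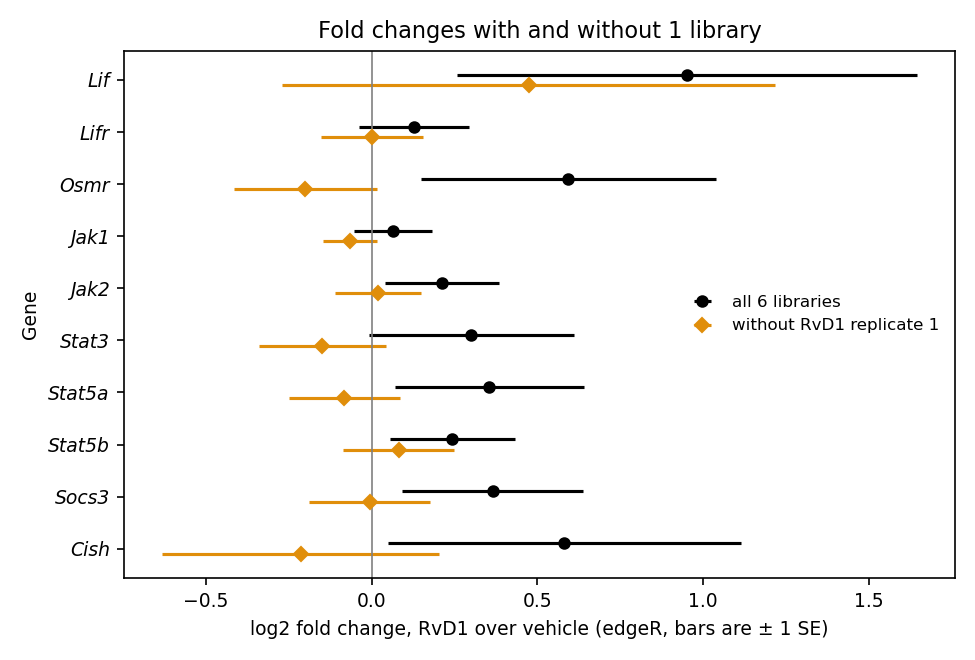
Log2 fold change of RvD1 over vehicle for each gene from edgeR, with bars of 1 SE, for all 6 libraries (black circles) and without RvD1 replicate 1 (orange diamonds). All black points lie above 0, and 6 of the 10 orange points lie below 0.

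The sorted cells expressed MuSC and myoblast genes in every library. Myog, the most abundant of the 12 myogenic genes listed, was between 818 and 1378 TPM. Myod1 was between 239 and 470 TPM, Myf5 between 101 and 220 TPM, and Pax7 between 4.03 and 8.50 TPM. The mean level of 12 myogenic genes was 8.29 to 8.46 log2 CPM with RvD1 and 8.26 to 8.43 log2 CPM with vehicle, which differ by 0.01 (two-sided exact permutation test, p = 0.8, where 3 against 3 mice allow no p below 0.1). This mean covers genes that moved in different directions in RvD1 replicate 1. Of the 12, 6 were highest in that library (30.6% of all genes). In TPM, Myf5 and Pax7 were highest there, whereas Myod1 was lowest there, at 239 TPM.

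Marker genes of other cells moved with RvD1 replicate 1 in part. Of 10 tested genes of fibro-adipogenic and connective tissue cells, 7 were highest in that library (30.6% of all genes). Dcn (decorin) was at 450 TPM there against 182 to 284 TPM elsewhere. Ly6a, which encodes the Sca-1 that was selected against, did not follow these 7 genes. It was at 25.4, 22.4, and 17.3 TPM with RvD1 and at 39.7, 26.3, and 30.3 TPM with vehicle, and alone in this list passed the unadjusted threshold (−0.62 on the log2 scale, edgeR unadjusted p = 0.0141, adjusted p = 0.971). The whole list averaged 4.52 log2 CPM in RvD1 replicate 1, 3.57 and 3.89 in the other RvD1 libraries, and 3.77 to 4.04 with vehicle. Of 7 genes of pericytes and smooth muscle, 5 were highest in RvD1 replicate 1 (30.6% of all genes). The list was at 5.40, 4.65, and 5.12 log2 CPM with RvD1 and at 4.44 to 4.63 with vehicle (difference 0.49, p = 0.1 in the same exact permutation test, its lower limit). Estimates were above 0 for all 7 (53.5% of all genes), and for 6 of 7 without RvD1 replicate 1 (50.3% of all genes). An unadjusted p under 0.05 in edgeR was found for 2 of the 7, Abcc9 and Pdgfrb (background 3.47%). An adjusted p under 0.05 was found for 0.

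Genes induced early by stress or by tissue dissociation were also high in this mouse. Of 14 such genes, 12 were highest in RvD1 replicate 1 (30.6% of all genes). The 14 averaged 7.65 log2 CPM there, 7.05 and 7.12 in the other RvD1 libraries, and 7.10 to 7.20 with vehicle. Fos was at 549 TPM in RvD1 replicate 1, but also at 502 TPM in RvD1 replicate 3. The part of these cells and genes in the result was not tested.

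Leukocyte and endothelial markers were also read. The mean of the leukocyte list was −0.02 to 0.29 log2 CPM with RvD1 and 0.25 to 0.67 with vehicle. Of 14 tested genes, 4 were highest in RvD1 replicate 1, near the 30.6% of all genes. Estimates were lower with RvD1 for 12 of the 14 (higher for 53.5% of all genes). An unadjusted p under 0.05 was found for 4 of the 14 (background 3.47%), Ctss, Lyz2, C1qb, and Tyrobp, all lower with RvD1, and an adjusted p under 0.05 for 0. Levels differed widely within the list, from S100a9, a neutrophil gene, at 0 in every library and Ptprc (CD45) at 0.08 to 1.13 TPM to Cd68 at 4.87 to 11.03 TPM and Lyz2 (lysozyme) at 17.6 to 61.1 TPM. The part of these cells in the result was not tested. The endothelial list lay between −0.38 and 0.95 log2 CPM in RvD1 mice and between −0.15 and 2.0 in vehicle mice. Of its 11 genes, 1 was highest in RvD1 replicate 1 (30.6% of all genes). Estimates were lower with RvD1 for 9 of the 11 (higher for 53.5% of all genes). Their median log2 fold change was −0.92, and 0 had an unadjusted p under 0.05.

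The other genes of the pathway were taken from lists of ligands, receptors, kinases, STATs, inhibitors, and targets. Besides the 10 genes these hold 68 others, of which 60 could be tested. Point estimates were above 0 for 41 and below 0 for 19 (above 0 for 53.5% of all genes), and an adjusted p under 0.05 was found for 0 and an unadjusted one for 1 (background 3.47%). Their median log2 fold change was 0.06, and 27 of the 60 were highest in RvD1 replicate 1 (30.6% of all genes). Without that library 26 of 60 were above 0 (50.3% of all genes), with a median of −0.01.

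Of the 6 tested ligands of the IL-6 family, 4 were above 0 (53.5% of all genes) and 2 below, with a median of 0.15. Among them, Il6 and the cardiotrophin-like Clcf1 were the most abundant. Il6 was at 12.4, 7.99, and 11.7 TPM with RvD1 and at 9.52, 10.3, and 10.1 TPM with vehicle. The estimate on the log2 scale was −0.08 (SE 0.219), and that of Clcf1 was 0.04. Il6 RNA thus exceeded Lif RNA in every library, and its RvD1 values lay on both sides of the vehicle values.

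The receptors of the IL-6 family had the highest median of the 9 pathway lists, 0.44, and it was −0.06 without RvD1 replicate 1. Of the 6 tested genes, 5 were above 0 (53.5% of all genes), and 3 without that library (50.3% of all genes). Il6st, which encodes the shared subunit gp130, was at 112, 72.1, and 78.0 TPM with RvD1 and at 71.8, 58.8, and 57.5 TPM with vehicle. Every RvD1 mouse was above every vehicle mouse for Il6st in TPM, but RvD1 replicate 2 exceeded vehicle replicate 1 only narrowly. On log2 CPM, 9.62% of all genes tested did not overlap in either direction. The share in TPM was not computed, and the log2 CPM values of Il6st are not given here. Over all genes tested, the median log2 fold change was 0.08 on log2(TPM + 1) and 0.01 by counts, so TPM was shifted further toward RvD1. By counts the log2 fold change of Il6st was 0.29 (SE 0.136), with an unadjusted p = 0.0628 and an adjusted p = 0.971 in edgeR's quasi-likelihood test, and it was 0.13 without RvD1 replicate 1.

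Il11ra1, the receptor of interleukin 11, was the gene whose unadjusted p fell below the threshold. It was at 23.3, 11.4, and 22.3 TPM with RvD1 and at 11.5, 12.5, and 13.5 TPM with vehicle. It was high in RvD1 replicates 1 and 3 and at the vehicle level in RvD1 replicate 2. The log2 fold change was 0.63 (SE 0.252, edgeR unadjusted p = 0.0342, adjusted p = 0.971), and 0.43 without RvD1 replicate 1.

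The remaining receptors, kinases, and STATs showed smaller estimates. Of 12 tested receptors of other JAK-coupled cytokines, 9 were above 0 (53.5% of all genes), with a median of 0.03. The most abundant, Ifngr1 and Ifnar1 for interferons, had log2 fold changes of 0.04 and 0.12. All 3 tested JAK kinases (median 0.21) and 5 of 6 tested STATs (median 0.26) were above 0, beside the same 53.5% of all genes. Without RvD1 replicate 1, 2 of 3 kinases and 2 of 6 STATs were above 0 (50.3% of all genes). In these lists the unadjusted p was above 0.05 for every gene.

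**Figure D5:**
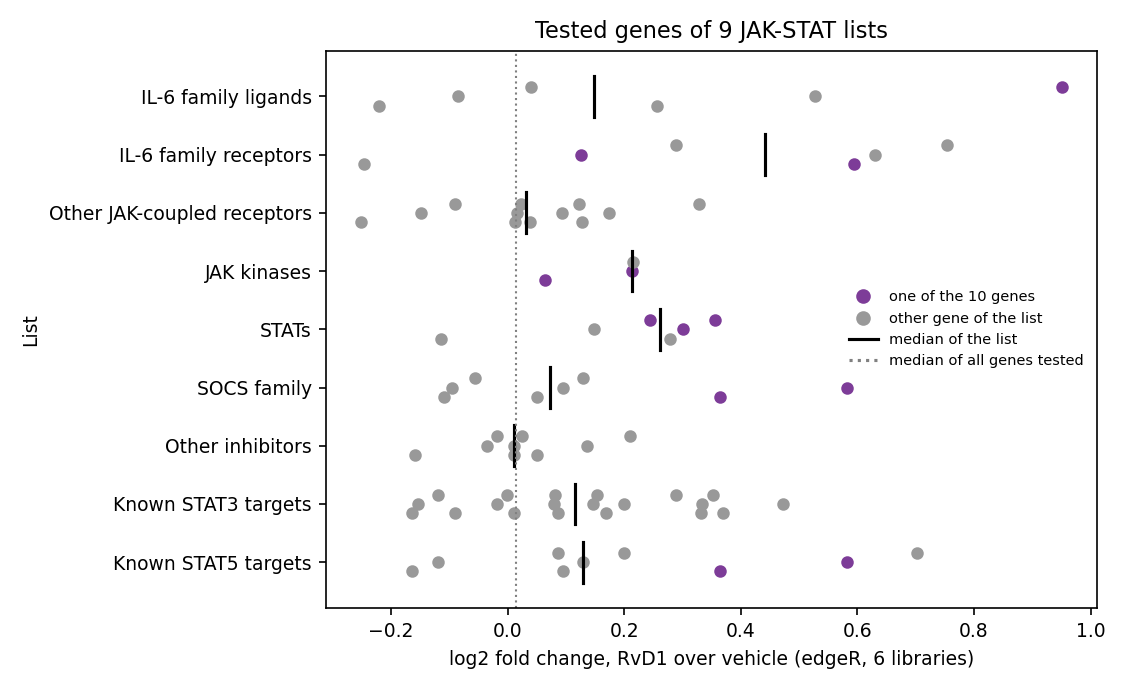
Log2 fold change of RvD1 over vehicle (edgeR, 6 libraries) for each tested gene of 9 lists, with purple for the 10 genes, gray for other genes, black ticks for list medians, and a dotted line at the median of all genes. List medians lie between 0.01 for the other inhibitors and 0.44 for the IL-6 family receptors, and Cish and Socs3 are the highest of the SOCS family.

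All 8 SOCS family genes were tested, with 5 above 0 (53.5% of all genes) and 3 below and a median of 0.07. Cish and Socs3 had the highest estimates, but Socs2, a feedback inhibitor of growth hormone signaling, was the most abundant. It was at 119, 66.6, and 64.6 TPM with RvD1 and at 78.4, 68.6, and 59.7 TPM with vehicle. RvD1 replicate 1 was again highest for Socs2, vehicle replicate 1 was next, and the log2 fold change was 0.13 (SE 0.196), or −0.14 without RvD1 replicate 1. Of 9 other inhibitors of the pathway, 6 were above 0 (53.5% of all genes), with a median of 0.01. The most abundant, the SUMO ligase gene Pias2 and the phosphatase gene Ptpn2, had log2 fold changes of 0.02 and −0.02.

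Of 20 known STAT3 targets, 14 were above 0 (53.5% of all genes) and 6 below. Their median was 0.12, and it was 0.02 without RvD1 replicate 1. The most abundant were the immediate early genes Fos (log2 fold change 0.33) and Junb (−0.09). Of 9 tested STAT5 targets, which include Cish and Socs3, 7 were above 0 (53.5% of all genes), with a median of 0.13. Ccnd1, which encodes cyclin D1, was at −0.16. No target gene of these lists had an unadjusted p under 0.05. The target lists overlap with each other and with the SOCS list, and their counts are not independent.

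Genes with the pattern most like Stat3, Socs3, and Cish over the 6 libraries were sought by the root mean square difference of log2 CPM after each gene's mean was subtracted. For Socs3, the transcription factor gene Irf1 was the nearest of 3771 genes compared (0.05, where the SD of Socs3 itself was 0.45), followed by Ssc5d (0.05) and Rhoh (0.07). Stat5a (0.15) and Stat3 (0.18) were the nearest of the 10 genes. For Stat3, the nearest of 3198 genes were Aim1 (0.03), Plekhh2 (0.05), and Dopey2 (0.06). For Cish (SD 0.75), they were Spon1 (0.12), Klhl33 (0.16), and Adam22 (0.17) among 1404 genes, and Osmr (0.22) among the 10. With 6 libraries and so many genes, close matches are found for many patterns, so these values are descriptions.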

How the data were processed

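RNA of FACS-sorted MuSCs was sequenced as 76-bp single-ended reads (SMART-Seq v4 and Nextera XT, which do not mark strand). The authors used STAR 2.5.0a for alignment to mm10 and RSEM for quantification. Expected counts, as deposited, are estimates per gene without scaling for depth. In the deposited TPM and FPKM the authors corrected for length and depth. Of 49671 genes, 22860 had 0 counts in all libraries, and 1 stray header line was removed.

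Groups and replicate numbers were taken from the sample labels. Expected counts, 16148026 to 28149176 per library, were rounded to whole numbers and tested with edgeR 4.0.16 in R 4.3.3 (TMM, filterByExpr by group, quasi-likelihood test without robust estimation, Benjamini-Hochberg threshold 0.05). This left 14494 genes. Log2 CPM used a prior count of 2. Each SE is the fold change divided by the root of the test statistic. The test was also run on simulated data. Alternatives were DESeq2 1.42.0, other scaling, other count filters (none, or a mean of 10 counts), robust estimation, a replicate block, limma 3.58.1 with voom on expected counts with and without 1 surrogate variable (sva 3.50.0) removed (the study's methods remove surrogate variables but do not state how many, and num.sv gave 1 here), limma on log2 of TPM (pseudocounts 1 and 0.1) and of FPKM (pseudocount 1), and each library left out in turn.

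The 10 genes and all lists were chosen with earlier results of these data known. Named genes are these 10, the 2 most abundant genes of each pathway list by mean TPM, and any gene of these lists with an unadjusted p under 0.05, of which some are not reported here. Marker genes were named after their values were seen. Likeness was measured among tested genes whose SD over libraries was at least 0.8 times that of the gene in question. Positions are from GENCODE M21, and promoters are from RefSeq (GRCm38.p6).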

Additional observations from a re-analysis of the deposited data

How the results depend on the processing

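At an adjusted p under 0.05, edgeR called 0 of 14494 genes (503 at an unadjusted p under 0.05), DESeq2 called 0 (474 unadjusted), and edgeR called 12 without a filter on low counts. With each library left out edgeR called 0 to 1, the 1 arising without RvD1 replicate 3. The count with an unadjusted p under 0.05 became 1143 of 26641 genes without the filter and 896 of 14494 with a replicate block. It became 2973 of 26518 genes with limma-voom after removal of 1 surrogate variable. Removing that variable before the linear model makes p too small. Among the fits with 1 library left out, the count ranged from 282 (without vehicle replicate 3) to 1016 (without RvD1 replicate 2), with 284 without vehicle replicate 2. Of the unadjusted calls, 52.7% were higher with RvD1 in the edgeR fit, 65.7% with library totals alone, and 75.3% and 75.6% with TPM at pseudocounts of 1 and 0.1. The causes were not tested.

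For the 10 genes, the direction reversed only without RvD1 replicate 1, among the 18 alternatives. With 1 library left out, the log2 fold change ranged from −0.20 to 0.89 for Osmr, −0.064 to 0.12 for Jak1, −0.15 to 0.51 for Stat3, −0.083 to 0.56 for Stat5a, −0.0064 to 0.61 for Socs3, and −0.21 to 0.98 for Cish. No gene of the 10 had an adjusted p under 0.05 in any alternative. The smallest was an adjusted p of 0.51, with limma-voom after removal of 1 surrogate variable, the fit in which p is too small. Unadjusted p values under 0.05 arose for Lif and Jak2 without RvD1 replicate 3, Socs3 without RvD1 replicate 2, Stat5b without vehicle replicate 1, and Osmr and Socs3 without the count filter.

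Replicate numbers 1, 2, and 3 appear in both groups and mark different mice. The deviations of same-numbered libraries had correlations across genes of 0.31, −0.00071, and 0.126. The mean was −0.0734 for RvD1 and vehicle libraries with different numbers. Only 3 of 6 libraries correlated best with their own number, so the numbers were not read as pairs. The cause of the higher correlation between the replicate 1 libraries was not tested. With the replicate block, all 10 genes stayed above 0, 0 had an adjusted p under 0.05, and Stat5b had an unadjusted p = 0.0328 (log2 fold change 0.25, edgeR, adjusted p = 0.791).

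With 3 mice per group, differences of the size of the spread between mice, such as that of Osmr or Cish, were not resolved, and for Lif and Cish the counts themselves were few. Protein and phosphorylation were not measured.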
